A study of Mus musculus with 7 samples.

Results

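The genes described here are 10 genes of vessel growth and of the response to low oxygen: the ligands Vegfa, Angpt2 and Adm, the receptors Flt1, Kdr, Nrp1 and Tek, the oxygen-regulated transcription factor subunit Hif1a, and the hypoxia-induced genes Bnip3 and Ndrg1. They were chosen by symbol, 10 of the 33710 genes listed in 7 matrices of unique molecular identifier (UMI) counts, where 1 UMI stands for 1 captured RNA molecule. Their UMIs were summed per mouse in 7 cell classes defined by marker genes, and none of the 10 was a marker. Flt1 and Kdr were highest in a small endothelial class, Tek was found there and in fibroblasts, Vegfa and Adm had no UMI there at a depth that could not show a lower level, Adm and Nrp1 were high in fibroblasts, and Ndrg1 was higher in tumor cells than in hormone-sensing cells.

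VEGF-A binds the receptor kinases FLT1 and KDR on endothelial cells, KDR carrying most of the growth signal, and neuropilin-1 (Nrp1) acts as its co-receptor. Angiopoietin-2 is released by endothelial cells and binds TIE2, the product of Tek, while adrenomedullin (Adm) is a secreted peptide that signals through Calcrl paired with Ramp2 or Ramp3. When oxygen falls, HIF-1α escapes hydroxylation by the EGLN enzymes and degradation through VHL, and raises transcription of Vegfa, Adm, Bnip3, Ndrg1 and most glycolytic genes. HIF-1α is regulated mainly as a protein, so Hif1a mRNA is not a reading of its activity.

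The series asks what hexokinase 2 (HK2) does in breast cancer metastasis. The 7 tumors are primary mammary tumors of MMTV-PyMT;HK2f/f mice on a C57BL/6 background, 1 mouse per library, labelled wild type and 3 months after a tumor became palpable. By the study's methods these controls lack the tamoxifen-inducible Cre but received tamoxifen like the deleted mice, which are not analysed here. All carry floxed, unrecombined HK2 and the polyoma middle T oncogene, driven by a viral promoter active in mammary epithelium. Tumor pieces were digested with collagenase and sequenced by Drop-seq, which pairs each cell with a barcoded bead, so a class that survives digestion poorly is under-represented. The labels fall into 2 title series, CB (4 tumors, replicates 1 to 4) and WT (3 tumors, replicates 5, 7 and 8).

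The positions of the genes are those of GENCODE vM21 on mm10 (GRCm38). Vegfa lies on chromosome 17 (46016993 to 46032369, minus strand), Flt1 on chromosome 5 (147561604 to 147726011, minus), Kdr on chromosome 5 (75932827 to 75978458, minus) and Nrp1 on chromosome 8 (128358604 to 128503363, plus). Angpt2 lies on chromosome 8 (18690263 to 18741562, minus), Tek on chromosome 4 (94739289 to 94874976, plus) and Hif1a on chromosome 12 (73901375 to 73947530, plus). Bnip3 and Adm lie on chromosome 7 (138890836 to 138909519, minus, and 110627661 to 110629820, plus), and Ndrg1 on chromosome 15 (66929318 to 66969640, minus).

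HIF binds a core of the letters ACGTG or GCGTG, and the promoters of the secreted ligands Vegfa and Adm and of the receptors Flt1 and Kdr are shown as the ligands and receptors whose levels are described first. Each run is the 250 bases before a RefSeq start (GRCm38.p6), read 5′ to 3′ along the gene, with every match to either core on either strand in capitals (a match on the other strand reads CACGT or CACGC). Of the 10 genes, 8 had an entry in the promoter table, and Vegfa had a pair of them.
Vegfa, chr17:46032378-46032627, minus strand: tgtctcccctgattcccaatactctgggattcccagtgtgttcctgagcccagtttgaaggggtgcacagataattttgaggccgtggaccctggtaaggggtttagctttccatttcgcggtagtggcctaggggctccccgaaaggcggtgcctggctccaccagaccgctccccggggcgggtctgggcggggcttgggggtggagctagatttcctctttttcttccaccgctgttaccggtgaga
Vegfa, chr17:46025164-46025413, minus strand: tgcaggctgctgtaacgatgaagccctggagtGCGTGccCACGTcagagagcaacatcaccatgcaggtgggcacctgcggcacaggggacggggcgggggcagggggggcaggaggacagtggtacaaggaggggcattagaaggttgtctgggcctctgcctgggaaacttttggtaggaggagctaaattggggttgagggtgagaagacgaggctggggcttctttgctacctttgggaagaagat
Adm, chr7:110627407-110627656, plus strand: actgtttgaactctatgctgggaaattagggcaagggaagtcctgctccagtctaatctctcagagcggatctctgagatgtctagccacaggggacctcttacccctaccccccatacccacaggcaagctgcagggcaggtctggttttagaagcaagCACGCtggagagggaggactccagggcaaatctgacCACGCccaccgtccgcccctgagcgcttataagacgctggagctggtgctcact
Flt1, chr5:147726012-147726261, minus strand: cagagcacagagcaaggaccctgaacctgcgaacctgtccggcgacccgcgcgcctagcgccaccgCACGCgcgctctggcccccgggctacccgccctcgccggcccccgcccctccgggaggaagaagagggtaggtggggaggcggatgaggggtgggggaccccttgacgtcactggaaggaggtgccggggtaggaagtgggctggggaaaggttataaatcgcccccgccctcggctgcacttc
Kdr, chr5:75978456-75978705, minus strand: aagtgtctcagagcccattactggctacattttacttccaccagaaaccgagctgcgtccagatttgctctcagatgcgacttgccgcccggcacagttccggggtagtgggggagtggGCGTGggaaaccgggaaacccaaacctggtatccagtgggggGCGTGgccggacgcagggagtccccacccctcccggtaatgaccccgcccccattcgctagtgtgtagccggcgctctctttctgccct

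The upstream Vegfa start, which lies next to the 5′ end of the annotated gene, held no core in its window of 300 bases. The window of the second Vegfa start, which lies inside the annotated gene, held 2. Bases farther upstream than these windows were not searched, so a window without a core does not show that a gene lacks one. Adm held 2, Kdr 2, Flt1 1, Nrp1 1, Hif1a 3, Bnip3 5 and Tek 0. At least 1 core was present in 43.8% of all 32851 promoters of that length and at least 2 in 20.6%. Among the other HIF target genes, a list of 30 glycolytic and related genes, 26 of the 27 with an entry held a core at some start, against 46.7% of all 27025 genes. Matches can overlap, as they do in the palindrome CACGTG, and a match is not a binding site.

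Of 37000 barcodes, 15047 had 200 to 6000 genes and were taken as cells, 1133 to 4780 per tumor, with a median of 527 to 694 UMIs per cell. A class was given to 8405 cells, while 566 passed the rules of several classes and 5915 of none. The tumor class held 3043 cells, macrophages 2021, T/NK cells 1497, fibroblasts 1013, hormone-sensing cells 707, myoepithelial cells 78 and endothelial cells 46. Cells passing several rules were left out. Of the cells passing a class's own rule, 3043 of 3419 were kept in the tumor class and 78 of 159 in the myoepithelial class. Replicates 7 and 8 stood apart in that their matrices still listed mitochondrial genes and hemoglobin made up 29.3% and 40.9% of the UMIs of their barcodes under 200 genes, against 0.351% to 8.92% in the others. Levels below are set beside those of the sparse barcodes with hemoglobin left out, called the free level, as a reading of RNA outside cells. Small or broken cells among the sparse barcodes were not told apart. Only 5 cell barcodes were shared between libraries.

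Endothelial cells were those with at least 2 UMIs of Pecam1, Cdh5 and Ramp2 together. The rule was met by 67 cells, of which 21 also passed another class's rule and were set aside, 10 of them as fibroblasts. Of the 46 kept, 43 carried a UMI of at least 1 of 8 endothelial markers outside the rule, and Plvap, a component of capillary fenestrae, stood at 1570 CPM (a gene's UMIs relative to all UMIs of the sum, on the usual CPM scale) against 4.10 in the other classes. Emcn stood at 877 CPM against 0.390. The pericyte markers Notch3, Pdgfrb and Cspg4 were at 0 UMIs and Kcnj8 at 1, whereas Rgs5 was present at 326 CPM. A pericyte rule on these same markers was met by 4 of the 67 cells, which were set aside. The low counts therefore follow in part from the rules and are no independent sign of purity. Replicate 3 gave no endothelial cell, and only replicates 4 and 5, with 15 and 14 cells, reached the minimum of 10 cells for a mean and test, so endothelial means have n = 2. The class held 49056 UMIs in all, which sets the precision of every endothelial value here.

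Flt1, the high-affinity VEGF receptor, was highest in the endothelial class. Its level was 1761 CPM in replicate 4 and 1604 in replicate 5, a mean of 1682 CPM ± 111 (SD, n = 2), and the 4 smaller endothelial sums of replicates 1, 2, 7 and 8 lay between 948 and 1437 CPM. Every endothelial sum was therefore above every sum of any other class. In sums over cells, more cells carrying a gene and more RNA per cell cannot be told apart. Of 137 UMIs in the 7 classes, 72 (52.6%) were endothelial, in 6 of 6 mice with such cells, and 27 (19.7%) were in fibroblasts. In tumor cells Flt1 ranged from 0 to 7.97 CPM with a median of 2.04, and in fibroblasts from 0 to 67.4 with a median of 20.7, and the sparse barcodes had a median of 19.5 CPM.

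Kdr, the main VEGF signalling receptor, was also highest in the endothelial class. It reached 1101 CPM in replicate 4 and 1374 in replicate 5 (mean 1238 ± 194, SD, n = 2), and 479 to 1376 CPM in the 4 smaller sums. Outside the endothelial class it was found in 17 UMIs among 10247198, so that pooled over mice it was 565-fold higher in endothelial cells (95% exact interval 318 to 1052, counting error only), and 901-fold without replicate 8. Hormone-sensing cells held 0 Kdr UMIs, which allows up to 2.22 CPM, and fibroblasts ranged from 0 to 16.9 CPM, where the sparse barcodes had a median of 11.1 and 2 of 7 mice exceeded their own free level. After the endothelial class, no neighbouring classes in the order of Flt1 or of Kdr differed by more than the SD of their paired log2 difference over mice.

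Tek, the angiopoietin receptor, was found mainly in endothelial cells and fibroblasts. Endothelial cells held 110 CPM in replicate 4 and 153 in replicate 5 (131 ± 30.2, SD, n = 2), from 3 UMIs. Over all 6 mice with such cells they held 6 of the 26 Tek UMIs in all classes. Fibroblasts held 18 of the 26, in all 7 mice, from 5.99 CPM in replicate 8 to 62.7 in replicate 1 with a median of 22.8 (mean 27.8 ± 18.9, SD, n = 7), and each exceeded the free level of its own mouse. T/NK cells held 2 Tek UMIs, in 2 of 7 mice. Tumor, hormone-sensing, myoepithelial and macrophage sums held 0 UMIs, which allows 0.554 CPM in tumor cells and 1.94 in macrophages. The endothelial markers outside the rule stood in fibroblasts at 1.07% of their endothelial level and Flt1 at 1.95%, whereas Tek stood at 15.6%. Fibroblasts also held pericyte markers at 177 CPM in sum, against 14.4 in tumor cells, and the part of these in the Tek level was not tested.

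Nrp1, which serves semaphorins as well as VEGF, was the broadest receptor. Endothelial cells held 440 and 1145 CPM in replicates 4 and 5 (793 ± 499, SD, n = 2). Fibroblasts ranged from 125 CPM in replicate 1 to 308 in replicate 5 with a median of 176 (205 ± 70.9, SD, n = 7), and macrophages from 63.8 in replicate 8 to 201 in replicate 5 with a median of 135 (129 ± 49.7, SD, n = 7). Fibroblasts were above macrophages in 6 of 7 mice, by less than the spread of that difference (log2 0.66 ± 0.74). Macrophages were above T/NK cells in 6 of 6 mice (log2 1.92 ± 0.82). Tumor cells held 0 to 8.82 CPM and were below the free level of their own mouse in every tumor.

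Angpt2, the antagonist ligand of TIE2, was counted 8 times in endothelial cells of 5 mice and 13 times in all other classes together. Pooled, it stood at 163 CPM (95% exact Poisson interval 70.4 to 321) in endothelial cells, 129-fold above the other classes (46.2 to 335). With 1 mouse left out the ratio ran from 89.7-fold without replicate 2 to 222-fold without replicate 8. Per mouse Angpt2 was 330 CPM in replicate 4 and 0 in replicate 5, so the 2 sums used for means do not agree on its level. No Angpt2 UMI occurred among 5410705 in tumor cells, which allows up to 0.554 CPM. The gene failed the filter on low counts and has no test in the comparisons of classes.

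**Figure D1:**
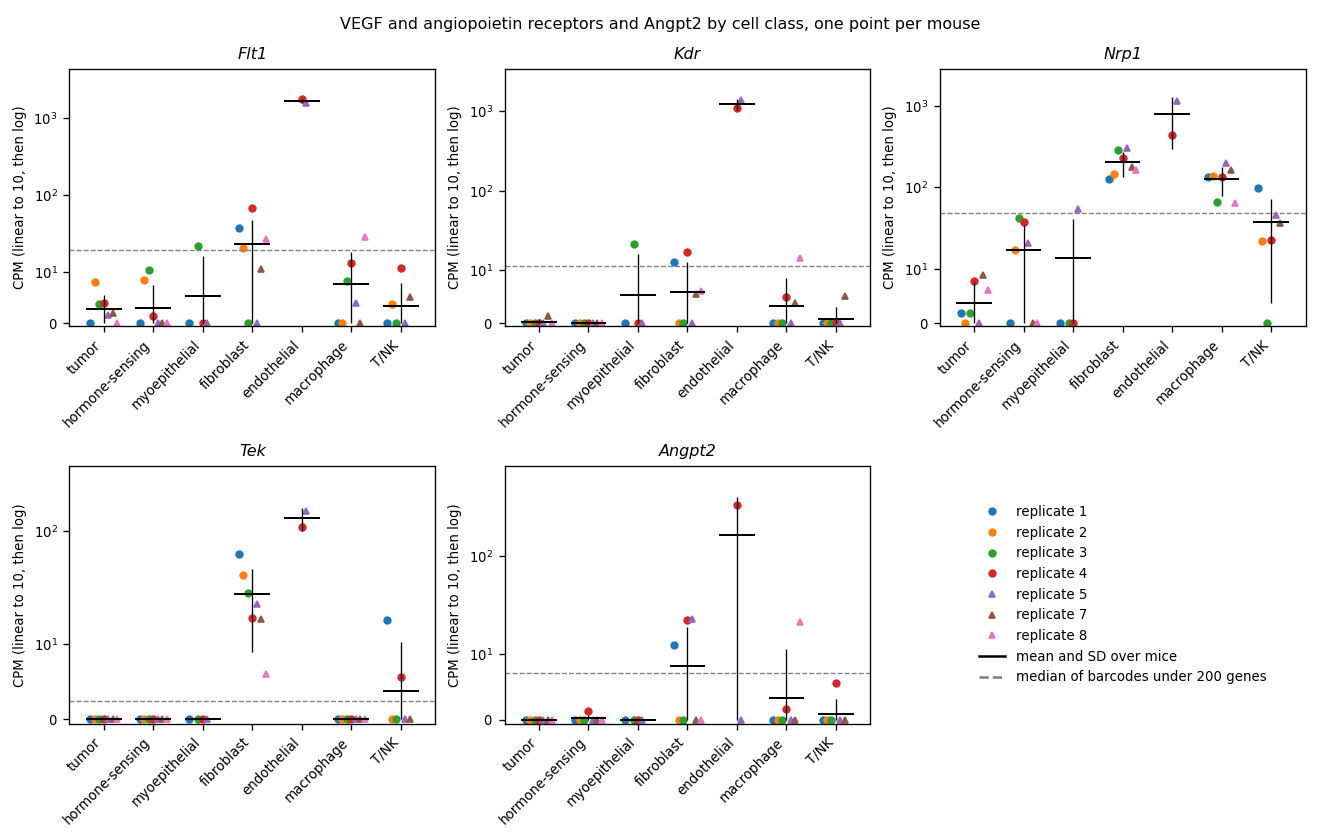
CPM of Flt1, Kdr, Nrp1, Tek and Angpt2 (vertical axis, linear to 10 and logarithmic above) in the 7 cell classes, 1 point per mouse for sums of at least 10 cells, circles for the CB and triangles for the WT title series, bars for mean and SD, the dashed line for the median of barcodes under 200 genes. Flt1 and Kdr points of the endothelial class lie at 1101 CPM or more, and every other point of these genes at 67.4 or less, while Nrp1 is also high in fibroblasts and macrophages and Tek in fibroblasts.

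Vegfa, the ligand of FLT1 and KDR, was counted at low levels in epithelial, stromal and immune classes, and its endothelial level could not be measured at this depth. Myoepithelial cells held 86.5, 95.2, 327 and 392 CPM in replicates 3, 4, 5 and 1 (225 ± 157, SD, n = 4), from 16 UMIs, the highest class in 3 of these 4 mice. In replicate 3 T/NK cells were higher at 144 CPM from 2 UMIs. They were above fibroblasts in 4 of 4 mice (log2 difference 1.56 ± 1.03) and above the free level in 4 of 4. Fibroblasts ranged from 33.1 CPM in replicate 7 to 192 in replicate 8 with a median of 57.2 (81.7 ± 58.5, SD, n = 7). Tumor cells ranged from 27.3 in replicate 4 to 97.1 in replicate 8 with a median of 45.5 (51.9 ± 23.6, SD, n = 7).

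Fibroblasts, macrophages, tumor cells, hormone-sensing cells and T/NK cells followed each other in Vegfa level with no gap beyond the spread over mice. The sparse barcodes had a median of 52.3 CPM, and tumor cells exceeded the free level of their own mouse in 3 of 7 tumors, macrophages in 2 of 7, T/NK cells in 2 of 6 and fibroblasts in 5 of 7. The log2 difference from the free level was -0.04 ± 0.54 in tumor cells (SD, n = 7) and -0.01 ± 0.58 in macrophages, so Vegfa in these classes could not be told from the level of the sparse barcodes. Replicate 8 had the highest Vegfa level in tumor cells, fibroblasts and macrophages, and also the highest free level, 166 CPM against 16.6 to 69.7 in the other tumors. The part of the free level in these values was not tested. Without replicate 8 the means were 44.4 ± 13.8 CPM in tumor cells and 63.3 ± 35.9 in fibroblasts (SD, n = 6).

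In endothelial cells 0 Vegfa UMIs were counted among 49056, in any of 6 mice, which allows up to 61.2 CPM. At the mean level of the other classes only 2.30 UMIs would have been counted, so lower Vegfa in endothelial cells was not detectable at this depth. Adm was likewise at 0 UMIs, where 1.73 would have been counted. In the same cells 72 Flt1 and 46 Kdr UMIs were counted.

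Adm, which encodes adrenomedullin, had its highest median level in fibroblasts, although tumor cells, the larger class, held 164 of its 361 UMIs (45.4%) and fibroblasts 138 (38.2%). Fibroblasts ranged from 73.1 CPM in replicate 4 to 319 in replicate 7 with a median of 113 (154 ± 87.0, SD, n = 7), and every one exceeded the free level of its mouse, by 2.70 ± 0.86 on the log2 scale. Tumor cells ranged from 13.7 in replicate 4 to 75.8 in replicate 3 with a median of 42.5 (38.0 ± 21.9, SD, n = 7), and these also exceeded the free level in 7 of 7 mice (log2 0.95 ± 0.56). Hormone-sensing cells had a median of 48.3 CPM, but replicate 8 stood at 409 from 6 UMIs in 13 cells, and without it the mean fell from 88.6 ± 143 (SD, n = 7) to 35.1 ± 23.4 (SD, n = 6). Macrophages held 8 UMIs in 3 mice and T/NK cells 3 in 1 mouse, at or under the free level in all but 1 mouse of each class.

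Ndrg1, a hypoxia- and differentiation-induced gene, had more UMIs than any other of the 10, at 1607. Myoepithelial cells held 95.2, 454, 816 and 1176 CPM in replicates 4, 3, 5 and 1 (635 ± 465, SD, n = 4), above the free level in 4 of 4 mice. Tumor cells ranged from 75.4 CPM in replicate 1 to 351 in replicate 3 with a median of 241 (215 ± 96.2, SD, n = 7), above the free level in 5 of 7 mice and under it in replicate 1 (75.4 against 107) and replicate 8 (297 against 336). Fibroblasts ranged from 34.2 in replicate 5 to 659 in replicate 8 with a median of 125, and their mean of 206 ± 211 (SD, n = 7) fell to 130 ± 74.1 (SD, n = 6) without replicate 8. They too were above the free level in 5 of 7 mice. Replicate 8 contributed 220 of the 294 fibroblast UMIs and 17 of the 18 endothelial UMIs, and its free level of 336 CPM was above the 61.6 to 157 of the other tumors. Macrophages and T/NK cells lay below the free level in every mouse.

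Mean levels of Hif1a mRNA ran from 132 ± 122 CPM in myoepithelial cells (SD, n = 4), through 94.2 ± 87.8 in hormone-sensing cells and 92.8 ± 43.0 in fibroblasts (SD, n = 7), to 32.8 ± 21.2 in tumor cells (SD, n = 7). Endothelial cells held 0 and 153 CPM in replicates 4 and 5, but pooled over 6 mice they stood at 245 CPM from 12 UMIs, 4.92-fold above the other classes (95% exact interval 2.52 to 8.66, counting error only), 8 of the 12 in replicate 8, without which it was 2.99-fold. Pooled myoepithelial cells stood at 70.3 CPM from 8 UMIs. No neighbouring classes in that order differed beyond their spread. Tumor cells lay below the free level of their mouse in 7 of 7 tumors and macrophages in 7 of 7. Replicate 8 was highest for Hif1a in each of the 4 classes that all 7 mice supplied, and its free level was again the highest, 153 CPM against 42.7 to 75.5.

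Bnip3, a mitophagy receptor, was counted 217 times, with means between 3.88 CPM in T/NK cells and 93.2 in endothelial cells, the latter from 1 UMI in each of replicates 4 and 5. Tumor cells ranged from 3.79 CPM in replicate 3 to 31.2 in replicate 7 (15.3 ± 9.28, SD, n = 7). They exceeded T/NK cells by more than the spread (log2 0.80 ± 0.58, higher in 5 of 6 mice), and no other neighbouring classes differed so. Against the free level, tumor cells were higher in 3 of 7 mice and fibroblasts in 4 of 7.

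**Figure D2:**
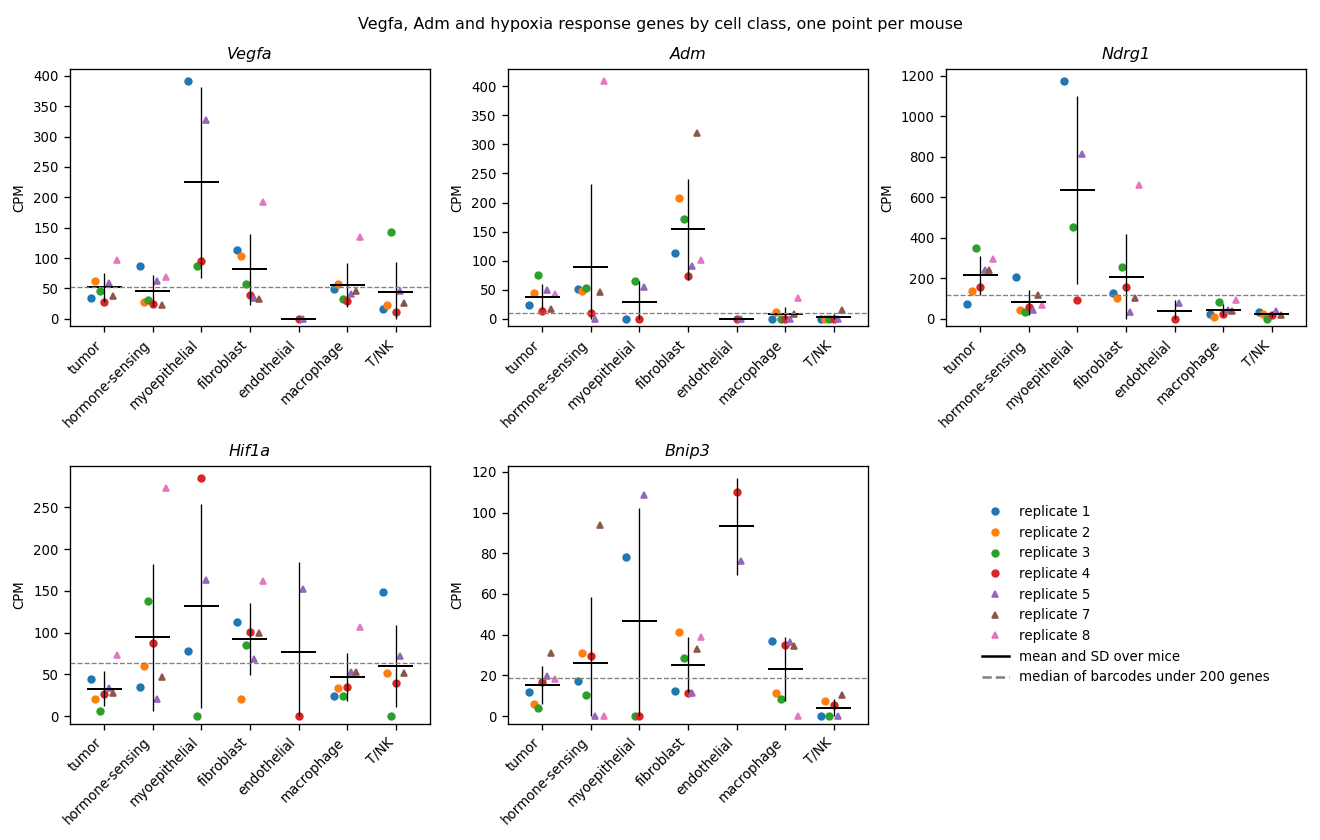
CPM of Vegfa, Adm, Ndrg1, Hif1a and Bnip3 (linear vertical axes) in the 7 cell classes, 1 point per mouse for sums of at least 10 cells, with mean and SD bars, and a dashed line for the median of barcodes under 200 genes. Adm points of fibroblasts lie above that line in all 7 mice, Vegfa points of most classes scatter around it, and replicate 8 is the highest fibroblast point for Vegfa, Ndrg1 and Hif1a.

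Each of 4 classes was then compared with the mean of the other 6 in edgeR's quasi-likelihood test, with class and mouse in 1 fit of 40 sums and 7342 genes, and Benjamini-Hochberg adjustment over all of them. The mean is taken over the fitted values of the classes on the log scale, where a small class weighs as much as a large one. The median log2 fold change of all genes was -1.08 in the endothelial comparison, 0.38 in the fibroblast, 0.27 in the macrophage and 0.45 in the tumor comparison, and a change below is to be read against it. With RLE scaling those medians were -0.21, 0.39, 0.04 and 0.11, and with DESeq2 0.34, 0.10, -0.18 and -0.09. The 4 comparisons share their sums, each class serving as reference for the others. As a check chosen after seeing the data, each class was also tested against all other classes summed per mouse. Among calls, the share of higher genes fell from 66.9% to 25.6% in endothelial cells, from 90.8% to 50.0% in fibroblasts, from 79.5% to 49.0% in macrophages and from 89.7% to 47.0% in tumor cells between the 2 references. It moved under other scalings of the same sums too, to 96.1% in endothelial and 70.7% in tumor cells with RLE, so the direction of counts over all genes is not stable, and the cause was not tested. With summed classes 4.36% of genes were called in endothelial cells (1.11% higher, 3.25% lower), 41.2% in fibroblasts (20.6% higher, 20.6% lower), 42.6% in macrophages (20.9% higher, 21.7% lower) and 38.8% in tumor cells (18.2% higher, 20.6% lower).

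In endothelial cells 4 of the 9 listed genes tested were called, all higher, where 3.75% of all genes were called, 2.51% higher and 1.24% lower. The log2 fold change was 6.85 for Flt1 (SE 0.54, adjusted p = 9.62e-18), 7.998 for Kdr (SE 0.61, adjusted p = 1.62e-17), 5.89 for Tek (SE 1.21, adjusted p = 0.000695) and 3.28 for Nrp1 (SE 0.58, adjusted p = 2.62e-05). Each was higher in 2 of 2 mice. The filter on low counts asked for 75.9 CPM in at least 2 sums, a level that Flt1, Kdr and Tek reached only in the 2 endothelial sums, so these 3 had to be higher to be tested and their count and direction carry no weight of their own. With 2 endothelial sums, a gene not called may still differ. The changes of Flt1 and Kdr were 6.04 and 7.40 in the CB series alone and 8.96 and 10.40 in the WT series alone, each from 1 endothelial sum and given as values only. Nrp1, with that 1 sum assumed to vary like the others, was called in WT (3.61) and not in CB (2.99, adjusted p = 0.322), nor without replicate 5 (2.79, adjusted p = 0.452), while Tek could not be tested within a series and was not called without replicate 5 (5.34, adjusted p = 0.251) or by DESeq2 (5.80, adjusted p = 0.227). Over 19 other settings, some with 1 endothelial sum, the Nrp1 change ran from 1.91 to 4.16 and was called in 16. Vegfa, Hif1a, Bnip3, Ndrg1 and Adm were not called.

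Of 16 angiopoietin, TIE and sprouting genes 11 were tested and 7 were called higher and 0 lower. Of these 7, Esm1, Ptprb, Notch4, Apln, Calcrl and Plxnd1 passed the filter only through the endothelial sums, so the count and direction follow from the filter, and Ramp3 passed it without them. Esm1, a secreted product of tip cells, had a log2 fold change of 9.19 (SE 0.93, adjusted p = 7.18e-12), Ptprb, the phosphatase that restrains TIE2, 7.43 (SE 0.75, adjusted p = 3.36e-12), Notch4 6.76 (SE 1.002, adjusted p = 8.11e-07) and Apln, the ligand of the apelin receptor, 6.40 (SE 0.84, adjusted p = 1.35e-08). Esm1 and Notch4 were not called by DESeq2 (adjusted p = 0.778 and 0.227). Ptprb rested on 18 UMIs in the endothelial sums tested, a mean of 822 CPM ± 82.6 (SD, n = 2), and on 32 over all mice.

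Of the other VEGF family, 4 of 7 genes were tested, and Nrp2, the co-receptor of lymphatic VEGFs, was called higher (3.37, SE 0.95, adjusted p = 0.0240), a call lost in either series alone and against the summed classes. Of 9 oxygen-sensing genes 3 were tested, and Epas1, which encodes HIF-2α, was higher (4.001, SE 0.85, adjusted p = 0.000777) at 301 CPM ± 114 (SD, n = 2). Of 30 other HIF targets 24 were tested, none was called higher and 2 were called lower, Mif (-4.22, SE 0.89, adjusted p = 0.000728) and the lactate dehydrogenase Ldha (-2.48, SE 0.60, adjusted p = 0.00481), with a list median of -1.45 beside -1.08. Ldha was not called in either series alone or by DESeq2, Mif not in CB alone, by DESeq2 or without replicate 4 or 5, and Epas1 not in CB alone or without replicate 5.

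In fibroblasts 7 of the 9 listed genes tested were called, all higher, against 26.9% of all genes called, 24.4% higher and 2.48% lower. DESeq2 called 4, also all higher. Tek had a log2 fold change of 4.19 (SE 0.60, adjusted p = 2.91e-08, higher in 5 of 7 mice), Adm of 4.06 (SE 0.47, adjusted p = 1.07e-11, 6 of 7) and Nrp1 of 2.67 (SE 0.27, adjusted p = 4.26e-14, 7 of 7). Adm reached the level of the filter in 6 fibroblast sums and 1 other, and so was tested only through fibroblasts. Tek reached that level only in endothelial sums and the least total of 15 UMIs only with fibroblasts, which held 18 of its 23 in the sums tested. The count and direction of Adm and Tek in fibroblasts therefore carry no weight of their own, and Flt1 and Kdr were tested only through endothelial sums. Nrp1 was at 2.66 against the summed classes (adjusted p = 6.96e-09) and was called in each series alone (3.31 in CB and 2.64 in WT). The size of the Adm change was 2.61 against the summed classes, 4.54 in CB and 3.72 in WT, given as values only. Tek could not be tested within a series and was not called by DESeq2 (3.06, adjusted p = 0.0845).

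The other 4 calls in fibroblasts were smaller. Vegfa had a log2 fold change of 1.66 (SE 0.55, adjusted p = 0.0154) but was higher than the mean of the other classes in CPM in only 3 of 7 mice, and it was called in neither series alone (1.69 in CB, adjusted p = 0.195, and 1.40 in WT, adjusted p = 0.310). The reference for Vegfa includes the endothelial class, at 0 UMIs and a fitted change of -6.61 (SE 3.23). In the mean, that value weighs as much as any other reference class, so it raises the fibroblast, macrophage and tumor changes of Vegfa. Over 20 other settings the fibroblast change ran from 0.50 to 2.08, with 11 calls. The macrophage change ran from 0.16 to 1.27 and the tumor change from -0.39 to 1.08, with 0 calls. Pooled over mice, fibroblast Vegfa was 2.48-fold that of the other classes, with 64 of 96 UMIs from replicate 8. The ratio was 0.998 in macrophages and 0.824 in tumor cells. The part of the endothelial value in the fibroblast call was not tested. For Adm the endothelial value was likewise fitted from 0 UMIs (-4.98, SE 5.44). The endothelial sums tested also held 0 UMIs of Vegfd, Angptl2, Plod2, P4ha2 and Hk2. The same limit on size applies to their fibroblast changes below. Ndrg1 at 1.35 (SE 0.34, adjusted p = 0.000986, higher in 4 of 7) was called in both series (2.12 and 1.22), but was 0.87 without replicate 8 (adjusted p = 0.0977) and 0.35 against the summed classes (adjusted p = 0.393). Hif1a at 0.86 (SE 0.31, adjusted p = 0.0298, 5 of 7) was called in neither series (1.91 and 0.67). Flt1 at 1.25 (SE 0.48, adjusted p = 0.0420, 4 of 7) fell to 0.23 without replicate 4 (adjusted p = 0.940), and was called in CB (1.61) and not in WT (0.86, adjusted p = 0.840).

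Fibroblasts also held the lymphatic VEGF ligands. Vegfd stood at 116 CPM ± 38.2 (SD, n = 7) against 1.89 ± 3.04 in the other classes, a log2 fold change of 7.09 (SE 0.53, adjusted p = 1.26e-18, higher in 7 of 7 mice), and Vegfc at 49.6 ± 22.8 (4.10, SE 0.52, adjusted p = 6.58e-10, 7 of 7). Nrp2 made a total of 3 of 4 tested family members called higher (2.24, SE 0.47, adjusted p = 5.45e-05). Vegfd, and below Angptl2 and Plod2, passed the filter only through fibroblasts, so their direction follows from it. Of the sprouting list 4 of 11 were higher and 1 was lower. Angptl2 (7.24, SE 0.45, adjusted p = 2.70e-23) and the lipase inhibitor Angptl4 (4.21, SE 0.30, adjusted p = 1.23e-21) were higher in 7 of 7 mice, with Calcrl (3.39, 7 of 7) also called. Ptprb, like Calcrl tested only through endothelial sums, was called (3.24) but not in WT alone or by DESeq2. Pdgfb, which recruits pericytes, was lower (-3.00, SE 0.90, adjusted p = 0.00637) from 2 UMIs in fibroblasts, a call lost in WT alone and without replicate 4.

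Of the oxygen-sensing genes, Epas1 was higher in fibroblasts (1.74, SE 0.45, adjusted p = 0.00124). Of the other HIF targets 5 of 24 were called higher and 1 lower, where 24.4% of all genes were called higher and 2.48% lower. The list median was -0.30 beside 0.38 over all genes, so the list as a whole was not shifted up. By DESeq2 5 were higher and 5 lower, and against the summed classes 4 and 11 of 21. The collagen-modifying enzymes Plod2 (5.14, SE 0.40, adjusted p = 2.70e-19), P4ha2 (3.92, SE 0.41, adjusted p = 1.87e-13) and P4ha1 (2.41, SE 0.30, adjusted p = 7.32e-11) were higher, as was Hk2, the glucose kinase floxed in these mice (4.12, SE 0.33, adjusted p = 1.54e-18). Hk2 stood at 339 CPM ± 150 in fibroblasts and 38.9 ± 18.9 in tumor cells (SD, n = 7), and was higher than the other classes in 7 of 7 mice. The glycolytic enzyme Eno1 was lower (-1.21, SE 0.28, adjusted p = 0.000291).

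In macrophages 1 of the 9 listed genes tested was called, higher, against 28.0% of all genes called, 22.2% higher and 5.73% lower. By DESeq2 1 was higher and 2 lower, against 1216 higher and 1355 lower of all 7342 genes. Nrp1 had a log2 fold change of 2.03 (SE 0.26, adjusted p = 3.60e-10, higher in 5 of 7 mice), 2.82 in CB and 2.08 in WT alone, each called. Its relative Nrp2 was higher too (3.28, SE 0.36, adjusted p = 9.30e-13) at 66.5 CPM ± 55.7 (SD, n = 7), 1 of 4 family members tested. Plxnd1 (3.91, SE 0.47, adjusted p = 6.98e-11) and Pdgfb (2.17, SE 0.40, adjusted p = 5.67e-06) were higher among 11 sprouting genes. Apln was called lower (adjusted p = 0.00519), but it held 0 UMIs in macrophages, which allows 1.94 CPM, against 6.17 CPM in the other classes together, and it was tested only through the 2 endothelial sums, so its fitted change is no measure of size. The Apln call was lost in each series alone. Epas1 was lower (-2.61, SE 0.69, adjusted p = 0.00177) from 3 UMIs in macrophages, also not called in either series alone.

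Of the other HIF targets in macrophages, 12 of 24 were called higher and 0 lower, with a median of 0.56 beside 0.27 over all genes. Of all genes, 22.2% were called higher and 5.73% lower. The balance of the list was not stable, with 6 higher and 0 lower under RLE scaling, and 6 higher and 4 lower both by DESeq2 and against the summed classes, where the list median was -0.01 beside -0.09. Hilpda, which inhibits triglyceride breakdown, had the lowest adjusted p, at 257 CPM ± 156 (SD, n = 7; log2 fold change 2.33, SE 0.26, adjusted p = 1.69e-12). Pfkfb3 (2.92, SE 0.43, adjusted p = 3.30e-08), P4ha1 (1.67, SE 0.29, adjusted p = 1.14e-06) and Gapdh (1.07, SE 0.17, adjusted p = 1.97e-07) were also called. Vegfa, a classic HIF target, was not called (1.12, SE 0.67, adjusted p = 0.248).

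In tumor cells 4 of the 9 listed genes tested were called, 1 higher and 3 lower, against 33.2% of all genes called, 29.8% higher and 3.42% lower. DESeq2 called 1 higher and 6 lower, where it called 975 higher and 1359 lower of all 7342 genes. Ndrg1 was higher by 1.41 (SE 0.27, adjusted p = 2.22e-05, higher in 6 of 7 mice), 2.27 in CB and 1.39 in WT alone. Against the summed classes it was at 0.85 and not called (adjusted p = 0.0896). Flt1, tested only through its endothelial sums, was lower (-2.36, SE 0.65, adjusted p = 0.00256) and Nrp1 was lower (-3.73, SE 0.80, adjusted p = 0.000113), each below the other classes in 7 of 7 mice. Flt1 was called in CB (-2.29) and not in WT (-1.72, adjusted p = 1), nor without replicate 3 (-1.70), and Nrp1 was called in WT (-3.54) and not in CB (-3.15, adjusted p = 1), nor without replicate 5 (-2.63). Hif1a was lower (-1.12, SE 0.36, adjusted p = 0.0117) and was below the other classes in CPM in 7 of 7 mice, but in CB alone it was at -0.04 and without replicate 5 at 0.06, not called in either.

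Other HIF targets were called higher in tumor cells in 12 of 24 cases and lower in 1, with a median of 0.79 beside 0.45. Of all genes, 29.8% were called higher and 3.42% lower. With RLE scaling 7 of the list were higher and 1 lower, by DESeq2 7 and 3, and against the summed classes 9 and 6 of 25 tested, with a median of -0.02 beside -0.00. The carbonic anhydrase Car9 (3.18, SE 0.39, adjusted p = 1.48e-10), the glycolytic enzymes Pfkl (2.75, SE 0.34, adjusted p = 1.41e-10) and Aldoa (1.14, SE 0.19, adjusted p = 1.17e-06) and Ldha (1.29, SE 0.18, adjusted p = 3.26e-09) were higher, and P4ha1 was lower (-1.83, SE 0.56, adjusted p = 0.00690), a call lost in each series alone and without replicate 5. Egln3, an oxygen sensor that is itself induced by HIF, was at 84.7 CPM ± 37.2 (SD, n = 7; log2 fold change 3.20, SE 0.39, adjusted p = 1.07e-10, higher in 7 of 7 mice). The FLT1 ligand Pgf was called higher in tumor cells (2.59, SE 0.44, adjusted p = 1.34e-06), at 68.5 CPM ± 47.8 (SD, n = 7), while myoepithelial cells held 218 ± 108 (SD, n = 4), and Nrp2 was lower (-2.02, SE 0.71, adjusted p = 0.0211), a call lost without replicate 2 and without replicate 4. Notch1 was higher by 0.70 (SE 0.27, adjusted p = 0.0393), close to the median of all genes, and was called in neither series. Car9, Pfkl, Egln3 and Pgf held 0 UMIs in the endothelial sums, which are part of the reference. The part of those fitted values in the size of their changes was not tested.

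**Figure D3:**
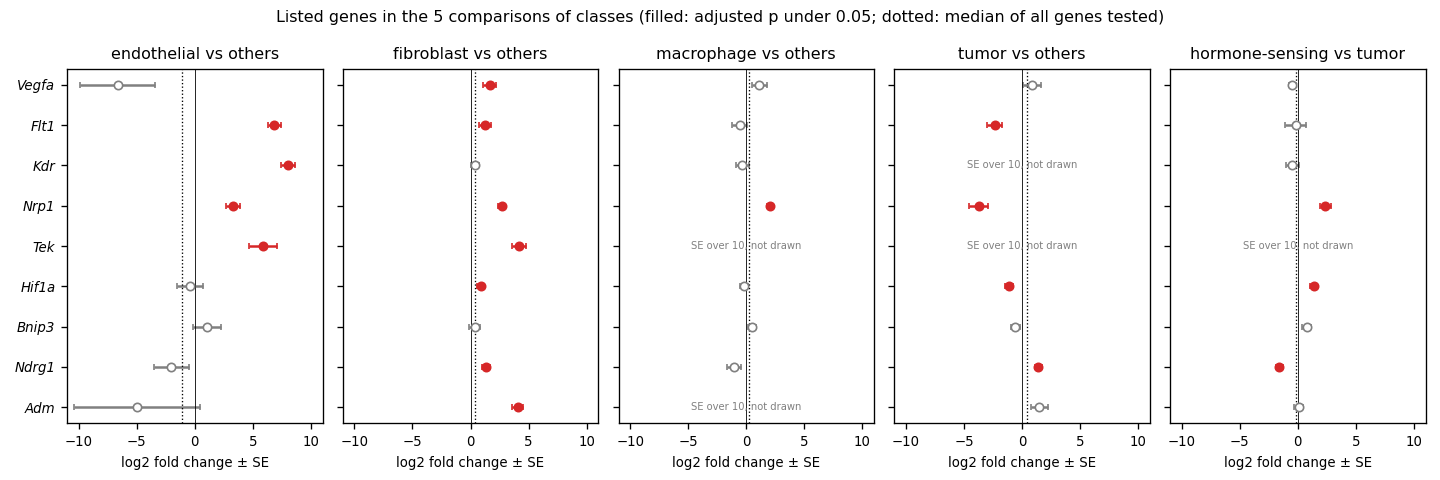
Log2 fold change ± SE (horizontal axis) of the 9 listed genes tested in the 5 comparisons of classes, filled where the adjusted p is under 0.05, with a dotted line at the median of all 7342 genes; genes whose SE exceeded 10, at or near 0 UMIs in the class, are not drawn. Kdr and Flt1 lie farthest right in endothelial cells, and Adm and Tek in fibroblasts.

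Hormone-sensing cells, the mature luminal cells that carry steroid receptors, were compared with tumor cells of the same mice to ask how the 2 epithelial classes differ. Cells that also passed another class's rule, the tumor rule included, were left out, so 707 of 994 cells passing the hormone-sensing rule remained. The comparison covers only these. Of the 9 listed genes tested 3 were called, 2 higher and 1 lower, against 25.8% of all genes called, 9.14% higher and 16.6% lower, with a median of all genes at -0.16. Ndrg1 was lower in hormone-sensing cells by 1.58 (log2 fold change -1.58, SE 0.31, adjusted p = 3.50e-05), with 81.4 CPM ± 62.3 against 215 ± 96.2 (SD, n = 7). It was lower in 6 of 7 mice, replicate 1 being the exception at 208 against 75.4 CPM, and it was called in CB (-1.37) and in WT (-2.28) alone. Hormone-sensing Ndrg1 was under the free level in 6 of 7 mice.

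Hif1a was higher in hormone-sensing than in tumor cells (log2 fold change 1.37, SE 0.30, adjusted p = 0.000152), in 5 of 7 mice, with 94.2 CPM ± 87.8 against 32.8 ± 21.2 (SD, n = 7). Nrp1 was higher as well (2.36, SE 0.46, adjusted p = 2.45e-05), in 4 of 7 mice, with 16.8 CPM ± 18.0 against 3.77 ± 3.72, though both levels were under the free level of their own mouse in all 7. Both calls came from the CB series (1.66 and 2.75) and neither was made in the WT series (0.33, adjusted p = 0.885, and 0.18, adjusted p = 0.990), where hormone-sensing sums were small. A test of the difference between the series was not run.

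Among the wider lists, 10 of 24 other HIF targets were lower in hormone-sensing cells and 3 were higher. Of all genes, 16.6% were called lower and 9.14% higher. The list median was -0.25, near the -0.16 of all genes. DESeq2 gave 7 lower and 3 higher in the list, and 864 lower and 978 higher of all 7342 genes. Car9 (-2.20, SE 0.37, adjusted p = 1.35e-06), Ldha (-1.13, SE 0.21, adjusted p = 1.05e-05), Pfkl (-1.46, SE 0.28, adjusted p = 1.19e-05) and Plod2 (-3.73, SE 0.76, adjusted p = 5.23e-05, from 1 UMI in hormone-sensing cells) were lower, as was the oxygen sensor Egln3 (-3.60, SE 0.46, adjusted p = 4.51e-10, lower in 7 of 7 mice). Stc2, a secreted glycoprotein that is also an estrogen target, stood at 548 CPM ± 260 against 8.72 ± 5.49 (5.56, SE 0.29, adjusted p = 8.07e-28, higher in 7 of 7 mice). It reached the level of the filter in 7 hormone-sensing sums and 1 other, so it was tested only through the class where it is high. Pfkfb3 (1.32) and Tpi1 (0.58) were also higher. Of the VEGF ligands, Pgf was lower (-4.004, SE 0.55, adjusted p = 5.34e-09) and Vegfd was higher (3.75, SE 0.76, adjusted p = 5.82e-05), from 4 and 12 UMIs in hormone-sensing cells. Notch1 was lower (-1.38, SE 0.36, adjusted p = 0.00206). Vegfc (adjusted p = 0.0466) and Angptl2 (adjusted p = 0.00865) were called lower at 0 UMIs in hormone-sensing cells, which allows 2.22 CPM, against pooled levels of 2.77 and 4.07 CPM in tumor cells, so their fitted changes are no measure of size. Vegfc was not called by DESeq2 (adjusted p = 0.813). Of the genes named from these lists, Stc2, Egln3, Ldha and Pfkl were also called in WT alone, and the others were not.

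**Figure D4:**
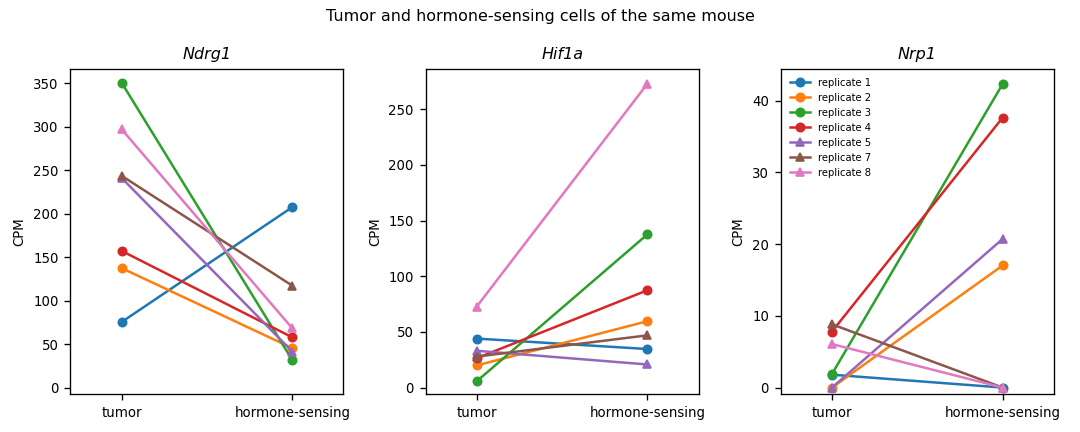
CPM of Ndrg1, Hif1a and Nrp1 (vertical axis) in tumor and hormone-sensing cells, with a line joining the sums of each mouse. Ndrg1 falls in 6 of 7 mice and Hif1a rises in 5 of 7.

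Whether tumor cells with a Vegfa UMI also held more of the other hypoxia genes was asked within each mouse. Vegfa in tumor cells could not be told from the level of the sparse barcodes, and how many of these UMIs came from outside the cell was not tested. The 178 tumor cells with a Vegfa UMI, 11 to 43 per mouse, were set against 3 tumor cells each without one from the same mouse and nearest in total UMIs, and Vegfa was left out. Depth was not fully matched, since the mean total UMIs per cell were higher with Vegfa in 7 of 7 mice, by 1.003 times in replicate 8 to 1.32 times in replicate 3. Of 2608 genes tested 0 were called by edgeR's quasi-likelihood test (a share of 0%), with 166 at an unadjusted p under 0.05 and 4 called by DESeq2. Ndrg1 was the 1 listed gene that passed the filter. It stood at 52.5, 246, 402, 240, 556, 498 and 147 CPM in cells with Vegfa of replicates 1, 2, 3, 4, 5, 7 and 8, against 58.3, 103, 295, 121, 150, 198 and 329 without. It was higher in 5 of 7 mice and lower in replicates 1 and 8, the latter from 3 UMIs in cells with Vegfa, with a log2 fold change of 0.99 (SE 0.22, adjusted p = 0.0695). Without replicate 8, a mouse where it was lower, the change was 1.12 and called (adjusted p = 0.0248). Of 18 other settings, that one included, only 4 gave a call, with changes from 0.61 to 1.25.

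The other HIF targets gave no call: 13 of 30 were tested, with a median of 0.28 beside -0.00 over all genes. Hilpda was higher in 7 of 7 mice (159 CPM ± 50.5 against 88.3 ± 18.1, SD, n = 7; 0.87, SE 0.20, adjusted p = 0.0809) and Ddit4, an mTORC1 inhibitor induced by low oxygen, in 5 of 7 (226 ± 168 against 126 ± 61.8; 0.77, SE 0.19, adjusted p = 0.161). Both were named after their values were seen. Ldha did not separate the cells (932 ± 256 against 990 ± 229 CPM, higher in 3 of 7 mice). Of the listed genes below the filter, Adm stood at 49.2 ± 36.3 against 42.4 ± 27.9 CPM, Bnip3 at 26.4 ± 20.4 against 14.1 ± 10.8 and Hif1a at 39.3 ± 32.0 against 44.1 ± 41.2 (SD, n = 7).

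**Figure D5:**
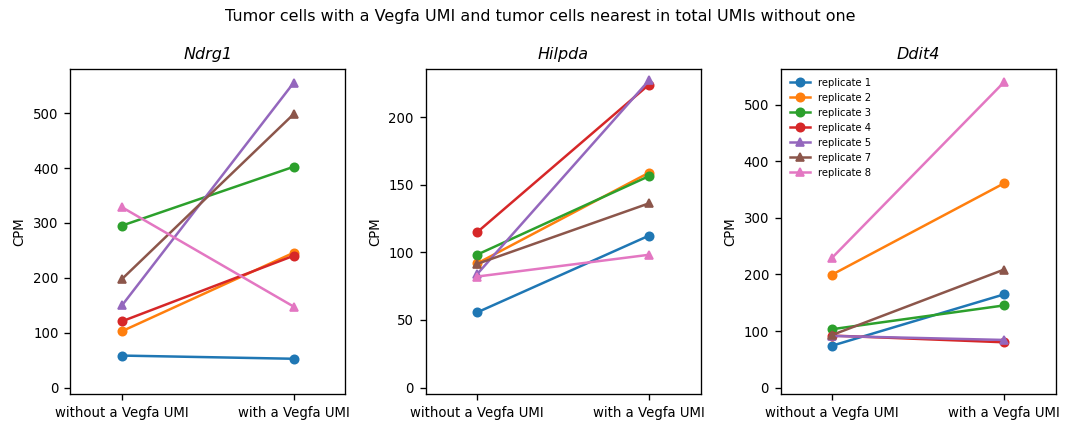
CPM of Ndrg1, Hilpda and Ddit4 (vertical axis) in tumor cells with a Vegfa UMI and in tumor cells without one that were nearest in total UMIs, joined per mouse. Hilpda rises in 7 of 7 mice, and Ndrg1 and Ddit4 rise in 5 of 7.

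Over the 40 sums, the genes most like each listed gene by Pearson r of log2(CPM + 10) were sought among the 6867 genes with at least 200 UMIs. Flt1 (137 UMIs in all classes), Kdr (63) and endothelial markers such as Cdh5 and Plvap were under that limit. They could not appear as matches, so the matches of the endothelial genes are not their nearest genes in the data. The r is given as a description, since sums share mice and differ in depth. Tek lay nearest to Cd34 (r = 0.90), a surface protein of vessels and stromal cells, and to the basement membrane gene Nid1 (0.84). Adm lay nearest to Maged2 (0.83), Sdc2 (0.80) and Ltbp1 (0.80), a binding protein of latent TGF-beta, and Nrp1 to Slfn5 (0.85) and Cxcl10 (0.81). Ndrg1 lay nearest to Ppp2r3a (0.76) and the small heat shock protein Cryab (0.75). Flt1 and Kdr shared Arhgap29 and Fkbp1a (0.67 to 0.71), while Vegfa (Rab21, 0.73), Bnip3 (Oasl2, 0.71), Hif1a (Lats1, 0.64) and Angpt2 (Mgat1, 0.60) had no closer match.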

How the data were processed

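Primary tumors of 7 mice were profiled by Drop-seq, each mouse giving 1 library. The authors deposited whole-number UMI counts per gene and cell barcode, 1 matrix per tumor. The submitters' processing notes name STAR and FastQC and the builds GRCh37.p13 and hg19, whereas the methods describe alignment to mm10 with the PyMT sequence added; genes carry mouse symbols. The counting program and annotation are not given in the sources used here. Mitochondrial genes, listed in 2 matrices, were dropped, and barcodes with 200 to 6000 genes were kept.

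Cells passing exactly 1 marker rule received that class. No doublet caller was run, and cells passing several rules were left out. Rules for B cells, pericytes, neutrophils and erythroid cells were applied as well, and cells given to these were kept apart from the classes described. Tumor cells needed at least 1 PYMT UMI and 2 UMIs of Krt8, Krt18 and Epcam, endothelial cells 2 UMIs of Pecam1, Cdh5 and Ramp2, T/NK cells 2 UMIs and the other classes 3 UMIs from at least 2 markers, with a basal marker in myoepithelial cells. The endothelial rule was given, and the other thresholds were set after marker counts were seen, without the listed genes. The listed genes and gene lists were chosen with earlier results of these data known.

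UMIs were summed per mouse and class (at least 10 cells), expressed as CPM, and tested in edgeR 4.0.16 (R 4.3.3) by quasi-likelihood F test with TMM scaling, filterByExpr, class and mouse as terms, and Benjamini-Hochberg adjustment with a threshold of 0.05; DESeq2 1.42.0 was an alternative. Mice are the replicates, and sums of 1 mouse are paired by the animal. Intervals are exact at 95%, and floors stand for 3 counts; both cover counting error only. Barcodes under 200 genes, hemoglobin left out, were taken as a reading of RNA outside cells. Named genes are the 10, and of each list up to 4 called genes per comparison and direction with the lowest adjusted p. A fitted fold change of a gene at 0 in a class depends on the prior count and is no bound. The fits were tested on simulated counts.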

Additional observations from a re-analysis of the deposited data

Results flagged for a closer look

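Of 29 sets of values per mouse with at least 20 UMIs, 6 held a sample far from the others by Dixon's criterion. Its chance rate of about 1 in 20 is for normal values of equal precision. CPM of sums of unequal depth are not such values, so no excess is read from this count. In replicate 8, Ndrg1 in fibroblasts was at 659 CPM (220 UMIs in 390 cells) against 34.2 to 257 in the other 6 mice, Vegfa in macrophages at 135 CPM against 29.8 to 57.0, Hif1a in macrophages at 106 CPM against 24.5 to 53.2, and Adm in hormone-sensing cells at 409 CPM (6 UMIs in 13 cells) against 0 to 52.9. The level in barcodes under 200 genes of replicate 8 was also the highest of the 7 for Vegfa, Hif1a and Ndrg1, and its macrophage levels of Vegfa and Hif1a were under that level; its part in these values was not tested. Vegfa in T/NK cells of replicate 3 was at 144 CPM from 2 UMIs in 27 cells, against 11.2 to 45.5. Bnip3 in hormone-sensing cells of replicate 7 was at 93.8 CPM from 4 UMIs in 17 cells, against 0 to 31.2.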

How the results depend on the processing

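Of 1349 log2 fold changes of single genes recomputed under other settings, 1212 kept their direction and side of the threshold, 128 lost the call, 5 gained it and 4 changed sign: Hif1a in tumor cells was 0.19 with at least 500 genes per cell, 0.14 with 1 more marker UMI per class and -1.26 to 0.059 when 1 replicate was left out (0.059 without replicate 5), and Nrp2 in tumor cells was 0.10 in the WT series, none of the reversed values called. The cause of these changes was not tested.

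Counts of called genes stayed within 1.5 times in 83 of 116 recomputations. The mouse is the pairing, and without it as a replicate block the counts were 243 for endothelial cells, 1907 for fibroblasts, 1894 for macrophages, 2089 for tumor cells, 1417 for hormone-sensing against tumor cells and 0 for tumor cells with a Vegfa UMI, within 1.5 times of the 275, 1977, 2054, 2441, 1893 and 0 reported. In the CB series alone (fewer samples) endothelial calls were 81, fibroblast 1096, macrophage 1358, tumor 1473 and Vegfa-split 9; in the WT series alone they were 127 for endothelial cells, 1429 for tumor, 507 for hormone-sensing against tumor and 1 for the Vegfa split. RLE scaling gave 1473 tumor calls, no filter 5574, and at least 500 genes per cell 1155. One more marker UMI per class gave 66 endothelial calls. Settings added after the data were seen were at least 2 cells per sum (endothelial 569, fibroblast 1245, macrophage 1343, tumor 1314, hormone-sensing against tumor 1036), every cell of the endothelial rule (470) and, for endothelial cells, other classes summed per mouse with at least 2 cells (924). For the Vegfa split DESeq2 gave 4 calls, no filter 32, at least 20 cells per sum 1, no PYMT requirement 2 and all tumor cells without Vegfa 1. Leaving out 1 replicate gave 74 to 349 endothelial calls (125 without replicate 4, 74 without replicate 5), 1398 to 1984 fibroblast, 1540 to 2254 macrophage, 1488 to 2574 tumor (1488 without replicate 4, 1578 without replicate 7), 1249 to 2055 hormone-sensing (1249 without replicate 4) and 0 to 9 for the Vegfa split (9 without replicate 5).

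The share of higher genes among calls moved by over 10 points under RLE scaling (endothelial 96.1%, macrophage 67.7%, tumor 70.7%, hormone-sensing 49.3%, from 66.9%, 79.5%, 89.7% and 35.4%) and under DESeq2 (97.2%, 47.3%, 41.8%, 53.1%, and fibroblast 75.7% from 90.8%). It also moved with at least 20 cells per sum (fibroblast 52.6%, macrophage 55.6%, tumor 58.1%), at least 500 genes per cell (68.8% and 65.9% in fibroblasts and macrophages), 1 more marker UMI (endothelial 84.8%, macrophage 91.1%), no filter (hormone-sensing 24.8%), the CB series alone (endothelial 87.7%), the WT series alone (macrophage 91.5%), no PYMT requirement (endothelial 55.4%), at least 2 cells per sum (endothelial 40.2%, macrophage 67.8%, tumor 77.0%), every cell of the endothelial rule (fibroblast 73.1%) and, for endothelial cells, without replicate 3, 4 or 5 (51.0%, 94.4%, 87.8%) and against other classes summed with at least 2 cells (12.01%). The class of highest mean level was as reported for 10 of 10 listed genes with the level of sparse barcodes subtracted, for 8 with 1 more marker UMI per class and without replicate 4, and for 2 with at least 500 genes per cell, where no endothelial sum remained. That setting and at least 20 cells per sum left no endothelial comparison. Tumor cells thinned to 500 UMIs could not be fitted, since no mouse kept 10 cells with Vegfa. Endothelial depth, 49056 UMIs in 46 cells, limits every statement on low genes in that class. Pooled endothelial ratios with each mouse left out were a further check chosen after the data were seen, and of Flt1, Kdr, Angpt2 and Hif1a the last 3 moved by over 1.5 times, each without replicate 8.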
